A study of Mus musculus with 6 samples.

Results

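The junctions described here join the switch region Sμ to places in the immunoglobulin heavy chain locus (IgH) that lie outside Sμ, Sγ1 and Sε. They were taken as every filled line of the authors' list of such junctions in each library, with no choice of single lines by value. They number 212 of 4214 listed IgH junctions and of 5608 junctions in all. The set as a whole was chosen with earlier results of these data known, larger mutant shares downstream of the gene Ighm among them. The libraries come from mouse splenic B cells without CD43, kept in culture until day 4 in the presence of IL-4 at 20 ng/mL and anti-CD40 at 1 ng/mL. There were 2 libraries of each of 3 genotypes: ATM RX/RX, whose series title concerns loss of the FATC domain of ATM, ATM KO (labelled ATM-/-), and wild type. All mice were of strain 129 and carried a preassembled IgH allele. Whether the 2 libraries of a genotype came from separate animals is not given in the sources used here, so p-values measure the spread between libraries, which may be technical.

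Class switching replaces the constant gene of an antibody by joining breaks in Sμ to breaks in a switch region farther downstream. Switch regions are repetitive stretches upstream of most constant genes, rich in the motif AGCT, which the deaminase AID prefers. ATM is the kinase that signals double-strand breaks and helps to hold their ends until they are joined. High-throughput genome-wide translocation sequencing (HTGTS) reads outwards from a primer in a fixed region, here Sμ (the bait), into whatever sequence the broken end was joined to (the prey). Downstream of the bait, a prey in minus orientation has the direction left by a deletion and a prey in plus orientation that left by an inversion. Where the ends share bases the junction has microhomology, where nothing is shared or added it is blunt, and other junctions carry inserted bases. Microhomology was read here as the overlap of the authors' bait and prey alignments, and in 7 of the 152 overlaps among the members the read differs from the bait at 1 or 2 bases.

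Positions of junctions are those of the authors' build, mm9 with the IgH switch segment of strain 129 put in place (mm9sr), on chromosome 12. The members fall into 4 windows. The upstream window, on the side of the J and D segments, lies above position 114671500 and held 61 members. The window from Sμ to Sγ1, chr12:114588001-114661500, held 83, and the window from Sγ1 to Sε, chr12:114517001-114558000, held 55. Below position 114507000, past Sε, lay 13. Of the 212 preys, 208 could be matched to the unmodified mm9 build (NCBIM37), and only these matches were set against the mm9 gene annotation. In that annotation the constant genes include Ighm at chr12:114659078-114660941, a constant gene named AI324046 at chr12:114597876-114599443, and Ighg1 at chr12:114567187-114568734. Farther downstream lie a constant gene named Ighg at chr12:114544600-114546144, Ighg2c at chr12:114523536-114527141, and Gm900, with the RefSeq symbol Ighe, at chr12:114509391-114511457. All of these are transcribed from the minus strand. In the gene order of RefSeq's GRCm38.p6, Ighg3 lies between Ighd and Ighg1, and Ighg2b between Ighg1 and Ighg2c.

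The reads below are those with the longest overlap and the longest insertion of each genotype, and show the bait, the joint and the prey, 5′ to 3′ along the read. Capitals mark the overlap of both alignments or the inserted bases, with up to 20 bases of bait before them and of prey after them. The ATM RX/RX overlaps of 7 bp differ from the bait at 1 base each and the ATM KO overlap of 12 bp at 2, and the wild-type overlap of 9 bp matches it throughout.
ATM RX/RX replicate 2, overlap of 7 bp, prey in minus orientation from 114539320: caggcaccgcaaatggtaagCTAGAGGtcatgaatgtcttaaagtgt
ATM RX/RX replicate 2, overlap of 7 bp, prey in plus orientation from 114605235: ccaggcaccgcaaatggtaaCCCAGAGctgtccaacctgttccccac
ATM RX/RX replicate 2, insertion of 24 bp, prey in plus orientation from 114719651: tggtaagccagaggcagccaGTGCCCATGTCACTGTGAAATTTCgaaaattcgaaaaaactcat
ATM KO replicate 2, overlap of 12 bp, prey in plus orientation from 114726478: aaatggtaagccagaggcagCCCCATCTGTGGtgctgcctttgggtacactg
ATM KO replicate 2, insertion of 22 bp, prey in minus orientation from 114529347: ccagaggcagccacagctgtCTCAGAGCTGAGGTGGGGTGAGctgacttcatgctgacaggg
Wild-type replicate 2, overlap of 9 bp, prey in minus orientation from 114500301: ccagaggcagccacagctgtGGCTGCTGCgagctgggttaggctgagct
Wild-type replicate 2, insertion of 4 bp, prey in minus orientation from 114671896: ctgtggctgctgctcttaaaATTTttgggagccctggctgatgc

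ATM RX/RX B cells had 43 members among 855 listed IgH junctions in replicate 1 and 28 among 517 in replicate 2. ATM KO B cells had 27 among 298 and 85 among 1432, and wild-type B cells 12 among 721 and 17 among 391. As a share of IgH junctions the members made up 5.03% and 5.42% in ATM RX/RX B cells, 9.06% and 5.94% in ATM KO, and 1.66% and 4.35% in wild type. On this measure both mutants lay above wild type without overlap, and ATM RX/RX lay below ATM KO. The group means were 5.22% ± 0.273 in ATM RX/RX, 7.50% ± 2.21 in ATM KO and 3.01% ± 1.90 in wild type (SD, n = 2 each). Between 2 libraries and 2 libraries the smallest p an exact two-sided permutation test can give is 0.3333, and that was its value in all 3 comparisons. The exact (Clopper-Pearson) 95% interval of the second wild-type library ran up to 6.87%, past the value of both ATM RX/RX libraries. Without wild-type replicate 1 the difference between ATM RX/RX and wild type, 2.22 percentage points, was 0.875, and without wild-type replicate 2 it was 3.56. The Sε lists, which count in the total, held 35 of 855 and 45 of 517 listed IgH junctions in ATM RX/RX and 17 of 298 and 128 of 1432 in ATM KO, against 320 of 721 and 111 of 391 in wild type. As a share of IgH junctions outside Sε, an alternative chosen after the data were seen, the members made up 5.24% and 5.93% in ATM RX/RX B cells, 9.61% and 6.52% in ATM KO, and 2.99% and 6.07% in wild type, so that ATM RX/RX overlapped wild type (exact permutation p = 1) and ATM KO did not. Library totals ran between 414 junctions (ATM KO replicate 1) and 1849 (ATM KO replicate 2), and 85 of the 112 ATM KO members come from replicate 2.

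**Figure D1:**
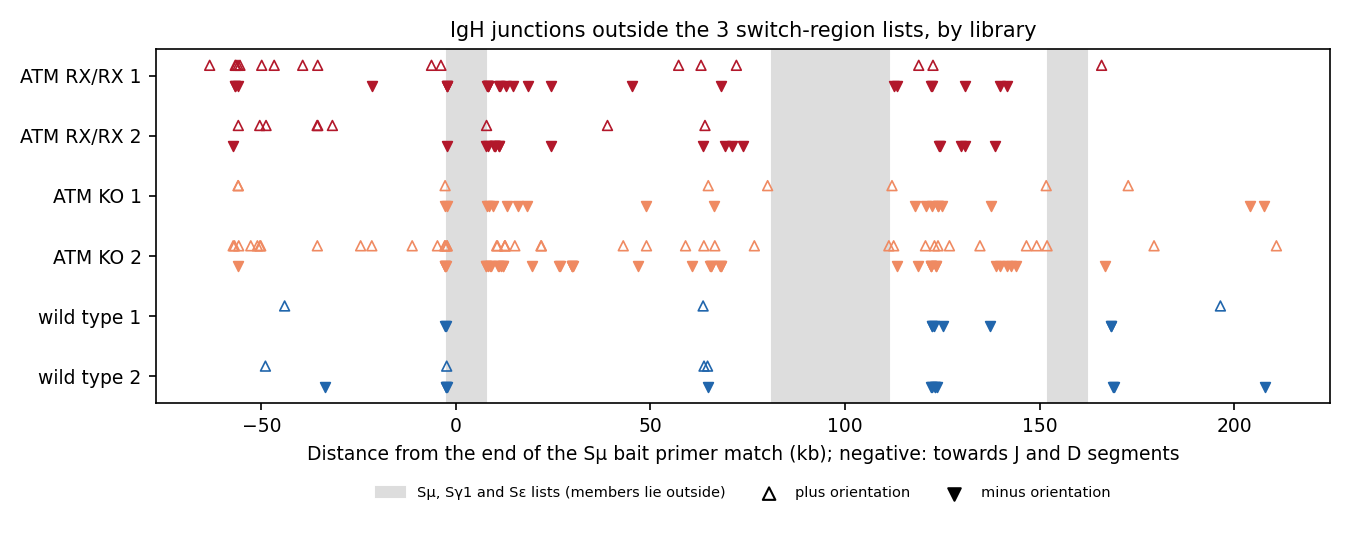
Each triangle is 1 junction, by library (rows) and distance from the end of the bait primer match in kb; filled triangles pointing down are in minus orientation, open triangles pointing up in plus orientation, and grey bands are the Sμ, Sγ1 and Sε lists. Just past the Sμ band both mutants have a run of minus-orientation junctions where both wild-type libraries have none, while the group in the middle of the Sγ1 to Sε window, upstream of Ighg, is present in all 6 libraries.

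Between Sμ and Sγ1, deletional joins were the class that separated both mutants from wild type. Minus-orientation members of this window numbered 12 and 12 in ATM RX/RX and 8 and 25 in ATM KO, against 0 and 1 in wild type. No mutant library overlapped a wild-type one. As a share of listed IgH junctions they averaged 1.86% ± 0.649 in ATM RX/RX, 2.22% ± 0.664 in ATM KO and 0.128% ± 0.181 in wild type (SD, n = 2 each). Classes were tested together by edgeR's quasi-likelihood test with Benjamini-Hochberg adjustment, relative to all junctions of a library: the members by window and orientation, Sμ, Sγ1 and Sε by orientation, chromosome 12 outside IgH, and the other chromosomes. The fold over wild type was 15.2 in ATM RX/RX B cells (log2 3.92, SE 0.95, adjusted p = 0.0309) and 18.0 in ATM KO (log2 4.17, SE 0.92, adjusted p = 0.0210), both against a single wild-type junction. This was 1 of the 6 member classes tested in each mutant, beside 3 of all 14 classes called in each (21.4%). The call was lost in ATM RX/RX without its replicate 2 (adjusted p = 0.0738), without wild-type replicate 1 (0.169) and with replicate number as a block (0.0502). It was lost in ATM KO without its replicate 1 (adjusted p = 0.0657), its replicate 2 (0.0651) or wild-type replicate 1 (0.121). The fit was also run on IgH junctions outside Sε, again chosen after the data were seen. There the class gave log2 3.49 in ATM RX/RX B cells (adjusted p = 0.00356) and log2 3.66 in ATM KO (adjusted p = 0.00142). Larger mutant shares downstream of Ighm were known when the members were chosen, so the p-values of this class are not independent of that choice.

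In plus orientation the same window held 3 and 3 members in ATM RX/RX and 2 and 14 in ATM KO, against 1 and 2 in wild type. As a share of IgH junctions this was 0.466% ± 0.162 in ATM RX/RX, 0.824% ± 0.217 in ATM KO and 0.325% ± 0.264 in wild type (SD, n = 2 each). The class did not pass the test in ATM RX/RX B cells (log2 0.52, SE 0.80, edgeR adjusted p = 0.684) or in ATM KO (log2 1.63, SE 0.68, edgeR adjusted p = 0.110). Its log2 change in ATM RX/RX turned to -0.32 without wild-type replicate 1.

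**Figure D2:**
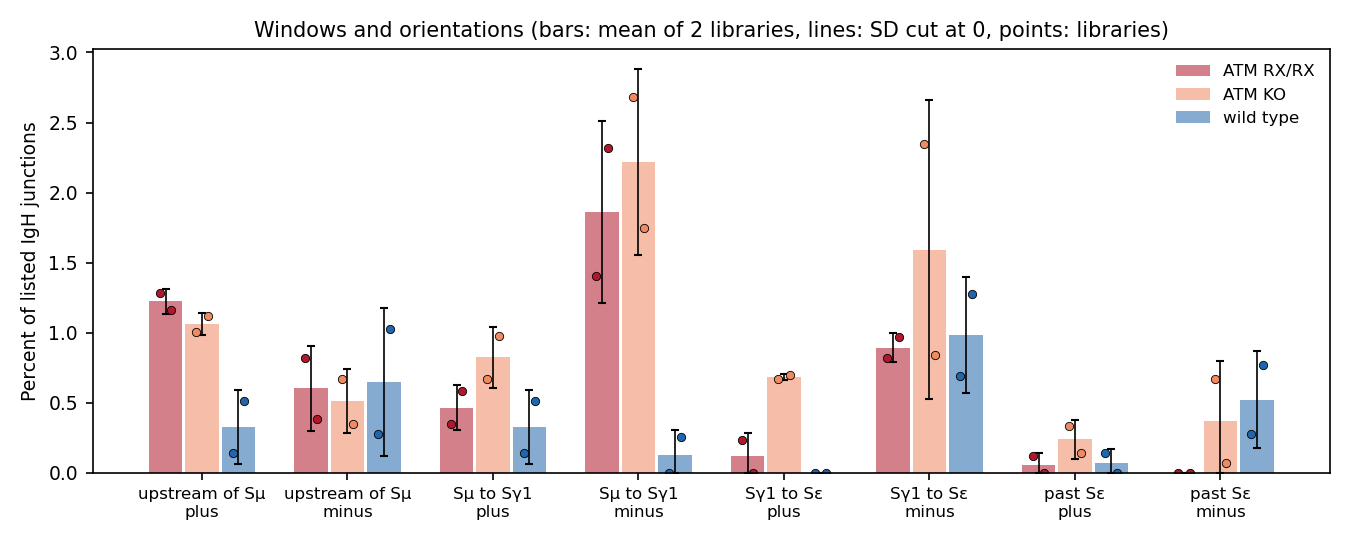
Percent of listed IgH junctions (vertical axis) in each window and orientation, with the mean of 2 libraries as a bar, the SD as a line cut at 0 and each library as a point. In the Sμ to Sγ1 minus class the mutant libraries lie at 1.40% or above and the wild-type libraries at 0.256% or below.

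Within this window the wild-type members lay in a stretch that mutant members shared, and most mutant members lay elsewhere. The stretches were drawn after the data were seen. The stretch upstream of AI324046 (chr12:114600375-114603689 in mm9, from the first to the last member) held 1 and 2 members in ATM RX/RX and 2 and 5 in ATM KO, against 1 and 3 in wild type. These 4 are all of the wild-type members of the window. Between that stretch and Ighm, 59 members lay at chr12:114605950-114658814 in mm9, 12 and 10 in ATM RX/RX and 7 and 30 in ATM KO, against 0 and 0 in wild type. The 0 of 1112 wild-type junctions allows a share of up to 0.270% (3 counts over the group). The ATM RX/RX share, 22 of 1372 (1.60%), was 5.94-fold this limit, and the ATM KO share, 37 of 1730 (2.14%), 7.93-fold. These folds over the limit, and those given the same way below, pool the libraries of a genotype and leave out the spread between them. They also leave out the counting error of the mutant share. Its exact 95% interval reaches down to 1.01% in ATM RX/RX B cells and 1.51% in ATM KO here. The exact 95% interval of wild type reaches up to 0.331%. Of the 59, 45 were in minus orientation and 37 lay within 10000 bp past the end of Ighm, the gene of the IgM heavy chain, on the side away from Sμ. No annotated gene of mm9 holds the ones nearest to Ighm, and 11 lay in Gm11029, a gene model on the plus strand at chr12:114655095-114657149. Ighd, which comes before Ighg3 in RefSeq's gene order, is not annotated in the mm9 annotation used here. Members inside Ighd could therefore not be told apart from the rest.

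Cut into bins of 5000 bp, with listed IgH junctions as the total, the members filled 7 bins with at least 10 junctions. Of these, 2 were called as higher in ATM RX/RX B cells and 3 in ATM KO, each against wild type, beside 4 (25%) and 8 (50%) of the 16 bins over the whole list. The bin next to the Sμ list, chr12:114658001-114661500, held 5 and 8 junctions in ATM RX/RX and 3 and 9 in ATM KO, against 0 and 0 in wild type. The share was 3.51-fold the wild-type limit of 0.270% in ATM RX/RX B cells (edgeR adjusted p = 0.00311) and 2.57-fold in ATM KO (edgeR adjusted p = 0.0117). Exact 95% intervals ran from 0.505% and 0.359% upwards, against up to 0.331% in wild type. Its neighbour, chr12:114653001-114658000, held 3 and 0 in ATM RX/RX, which did not pass (edgeR adjusted p = 0.139), and 2 and 7 in ATM KO, which did (edgeR adjusted p = 0.0224), against 0 and 0 in wild type. All of these calls were lost without wild-type replicate 1, with edgeR adjusted p between 0.0837 and 0.137, and those in ATM KO were also lost without either ATM KO library, with adjusted p between 0.0700 and 0.103. Both bins reached the minimum of 10 junctions through the mutant libraries alone. They lie downstream of Ighm, where larger mutant shares were known before the members were chosen. With no minimum the first stayed called in ATM RX/RX B cells (edgeR adjusted p = 0.00497) and in ATM KO (0.0235), and the ATM KO call of its neighbour was lost (0.0531), as it was without wild-type replicate 2 (0.0632).

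The edge of the Sμ list is the authors', and mutant junctions lay on both sides of it. The last 1000 bp of the window before it held 4, 3, 2 and 3 junctions in ATM RX/RX replicates 1 and 2 and ATM KO replicates 1 and 2, and 0 in both wild-type libraries. The first 1000 bp inside the list held 2, 1, 2 and 9 in the same order, and again 0 in both wild-type libraries.

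The start of the prey is shown for 1 junction of each genotype, the one nearest to the bait in this window, as the end that lay closest to the edge of the Sμ list. Capitals mark AGCT.
ATM RX/RX replicate 2, minus orientation from 114661409: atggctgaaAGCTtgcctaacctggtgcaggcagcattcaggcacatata
ATM KO replicate 2, minus orientation from 114661462: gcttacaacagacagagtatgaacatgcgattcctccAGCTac
Wild-type replicate 1, plus orientation from 114605715: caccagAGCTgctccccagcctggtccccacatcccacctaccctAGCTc
The mutant preys hold 1 AGCT each, in 50 and 43 bases, and the wild-type prey, which lies upstream of AI324046, holds 2 in 50 bases. Most mutant preys of the stretch between the flank of AI324046 and Ighm held none: AGCT stood in the first 50 bases of 6 of 22 in ATM RX/RX and 8 of 37 in ATM KO.

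Between Sγ1 and Sε, 1 stretch was joined in all 6 libraries. The 5000 bp upstream of Ighg in mm9, where 24 members lay at chr12:114546496-114549826, held 3 and 2 members in ATM RX/RX and 4 and 7 in ATM KO, against 3 and 5 in wild type. Of these 24, 21 were in minus orientation. Most of the 11 placed members with several equally good places on the chromosome lay here, all 3 of ATM RX/RX replicate 1 among them. For such members the place nearest to the listed position was taken. The 5000 bp upstream of Ighg2c, the gene of an IgG2 heavy chain, held 1 and 1 in ATM RX/RX and 1 and 3 in ATM KO, against 1 and 0 in wild type, all in minus orientation. Over the whole window, minus-orientation members numbered 7 and 5 in ATM RX/RX and 7 and 12 in ATM KO, against 5 and 5 in wild type, with overlapping shares.

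Plus-orientation members between Sγ1 and Sε were found in mutant libraries, 2 and 0 in ATM RX/RX and 2 and 10 in ATM KO, against 0 and 0 in wild type. In ATM KO they made up 0.671% and 0.698% of IgH junctions. Over both libraries this was 12 of 1730, a share 2.57-fold the limit of 0.270% that 0 of 1112 allows in wild type. The exact interval of the ATM KO share reaches down to 0.359%, and that of wild type reaches up to 0.331%. The class missed the threshold in ATM KO (edgeR adjusted p = 0.0515), and DESeq2 on the same counts gave an adjusted p of 0.0347. It reached the minimum of 10 junctions needed for a test through the mutant libraries alone. In ATM RX/RX it did not pass (edgeR adjusted p = 0.277). The difference between the mutants was log2 -2.22 (SE 0.83, ATM RX/RX over ATM KO), with an edgeR adjusted p of 0.626.

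The 2 flanks above and that of AI324046, each 5000 bp upstream of a constant gene, were chosen after the data were seen. Together they divide the members placed between the switch lists. In the flanks lay 5 of 24 and 5 of 20 such members in ATM RX/RX and 7 of 19 and 15 of 59 in ATM KO, against 5 of 6 and 8 of 8 in wild type. The share averaged 22.9% ± 2.95 in ATM RX/RX, 31.1% ± 8.07 in ATM KO and 91.7% ± 11.8 in wild type (SD, n = 2 each). As a share of IgH junctions, members in the flanks were 0.729% (10 of 1372) in ATM RX/RX, 1.27% (22 of 1730) in ATM KO and 1.17% (13 of 1112) in wild type, with 95% intervals that overlap. Members outside the flanks were 2.22% and 2.90% of IgH junctions in ATM RX/RX and 4.03% and 3.07% in ATM KO, against 0.139% and 0% in wild type. No groups overlap on either measure, and exact permutation gave p = 0.3333 in all 3 comparisons of each. The 1 wild-type member outside the flanks lay 105 bp inside the 5′ end of Ighg, in an exon.

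**Figure D3:**
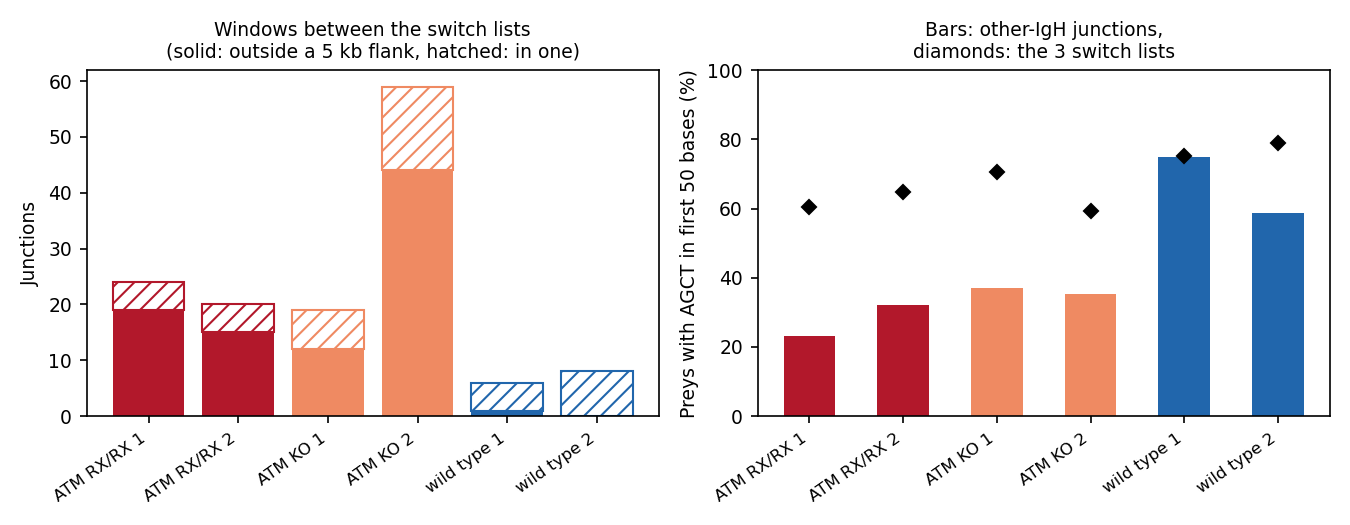
Left, members placed in mm9 between the switch lists, as junctions per library, solid outside a flank and hatched in a 5000 bp flank upstream of a constant gene. Right, percent of preys with AGCT in their first 50 bases, bars for the members and diamonds for the Sμ, Sγ1 and Sε lists of the same library; the 4 mutant bars lie between 23.3% and 37.0%, below both wild-type bars.

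Upstream of Sμ lie the J and D gene segments from which variable regions are assembled. The places below are those of the unmodified mm9 build. How much of them the preassembled IgH allele of these mice keeps was not examined. The stretch around the J segments was joined in every library, with 21 members at chr12:114667153-114667749 in mm9, a span that holds Ighj3 and reaches into Ighj2. Of these, 3 lay inside a J segment, 1 in Ighj2 in ATM KO replicate 2 and 2 in Ighj3 in wild-type replicate 2. They numbered 3 and 1 in ATM RX/RX and 3 and 8 in ATM KO, against 2 and 4 in wild type. Farther upstream, along the D segments from Ighd4-1 to Ighd1-1, lay 8 and 5 members in ATM RX/RX and 0 and 9 in ATM KO, against 1 and 2 in wild type. Beyond Ighd1-1, the D segment farthest from the J segments in this annotation, lay 7 and 2 in ATM RX/RX and 2 and 4 in ATM KO, against 0 and 0 in wild type.

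Orientation split these upstream members. Along the D segments 23 of 25 were in plus orientation, against 6 of 21 around the J segments. Over the whole upstream window, plus-orientation members numbered 11 and 6 in ATM RX/RX and 3 and 16 in ATM KO, against 1 and 2 in wild type. As a share of IgH junctions this was 1.22% ± 0.0891 in ATM RX/RX B cells and 1.06% ± 0.0782 in ATM KO, against 0.325% ± 0.264 in wild type (SD, n = 2 each), without overlap. The class missed the threshold in ATM RX/RX B cells (log2 1.96, SE 0.60, edgeR adjusted p = 0.0631) and in ATM KO (log2 1.89, SE 0.60, edgeR adjusted p = 0.0550). Minus-orientation members of the window numbered 7 and 2 in ATM RX/RX and 2 and 5 in ATM KO, against 2 and 4 in wild type, which overlap.

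One upstream bin, chr12:114721501-114726500 in mm9sr, around Ighd1-1, was called in both mutants. It held 7 and 1 junctions in ATM RX/RX and 2 and 5 in ATM KO, against 0 and 0 in wild type. Over both libraries the share was 0.583% in ATM RX/RX (exact 95% interval 0.252% to 1.15%, edgeR adjusted p = 0.0230) and 0.405% in ATM KO (0.163% to 0.832%, edgeR adjusted p = 0.0358), and both intervals overlap that of wild type, up to 0.331%. It too reached the minimum of 10 junctions through the mutant libraries alone. With 7 of its 15 junctions in 1 library, the ATM RX/RX call was lost without that library (adjusted p = 0.303), as it was without either ATM KO or either wild-type library (0.0553 to 0.158) and with no minimum (0.0531). The ATM KO call was lost without either library of ATM KO or of wild type (0.0862 to 0.185), with DESeq2 (adjusted p = 0.0647) and with no minimum (0.0811).

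Past Sε the members were few: 1 and 0 in ATM RX/RX and 3 and 3 in ATM KO, against 3 and 3 in wild type. With 5 in plus and 8 in minus orientation, neither class reached the 10 junctions needed for a test. Igha, the constant gene of IgA, follows Ighe in RefSeq's gene order and is not annotated in the mm9 annotation used here. In wild type 4 of the 6 lay between 114500153 and 114500975, and all 6 preys held AGCT in their first 50 bases, against 2 of 6 in ATM KO and 1 of 1 in ATM RX/RX.

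Pooled over the windows, the share of preys with the switch motif was lower in both mutants than in wild type. AGCT, which reads the same on both strands, stood in the first 50 prey bases of 23.3% and 32.1% of members in ATM RX/RX and 37.0% and 35.3% in ATM KO, against 75.0% and 58.8% in wild type. The groups do not overlap, and means were 27.7% ± 6.28 in ATM RX/RX, 36.2% ± 1.23 in ATM KO and 66.9% ± 11.4 in wild type (SD, n = 2 each, exact permutation p = 0.3333 in each comparison). The motif share followed place: 36 of 45 members in the flanks held it (80.0%), against 22 of 91 outside them (24.2%). Within the flanks it was 8 of 10 in ATM RX/RX and 17 of 22 in ATM KO, against 11 of 13 in wild type. Along the D segments it was 3 of 25. In the upstream window, where few preys held the motif, it was 1 of 26 in ATM RX/RX and 7 of 26 in ATM KO, against 2 of 9 in wild type, so that ATM KO was not lower there.

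Sμ, Sγ1 and Sε are rich in AGCT and the members lie outside these lists, so the comparison of both is given without a test. Switch regions of other constant genes were not left out of the members. The share with the motif was lower among the members than in the Sμ, Sγ1 and Sε lists in 6 of 6 libraries, by -24.6 ± 13.5 percentage points (SD over 6 libraries, members minus lists). The difference was smallest in wild-type replicate 1, with 75.0% of members against 75.3% of the lists.

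Most members had microhomology: 47 of 71 in ATM RX/RX, 83 of 112 in ATM KO and 22 of 29 in wild type. The share averaged 67.1% ± 6.11 in ATM RX/RX, 76.6% ± 6.87 in ATM KO and 77.0% ± 9.01 in wild type (SD, n = 2 each), and both mutants overlapped wild type. Mean microhomology length was 2.93 bp ± 0.316 in ATM RX/RX, 3.07 bp ± 0.163 in ATM KO and 2.48 bp ± 0.389 in wild type, with ATM RX/RX overlapping wild type and ATM KO above it (exact permutation p = 0.6667 and 0.3333). With each overlap counted only up to its first mismatch with the bait, chosen after the data were seen, the difference between ATM KO and wild type was 0.467 bp and the groups overlapped (exact permutation p = 0.6667). Overlaps of 5 bp or more were found in 1 and 4 ATM RX/RX members and 7 and 12 ATM KO members, against 0 and 2 in wild type. Of these, 1 and 2 in ATM RX/RX and 6 and 9 in ATM KO, against 0 and 2 in wild type, match the bait at every base. The longest without a mismatch was 6 bp in ATM RX/RX, 8 bp in ATM KO and 9 bp in wild type. The overlap of 12 bp in ATM KO replicate 2, with its 2 mismatches, joined Sμ beyond Ighd1-1.

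**Figure D4:**
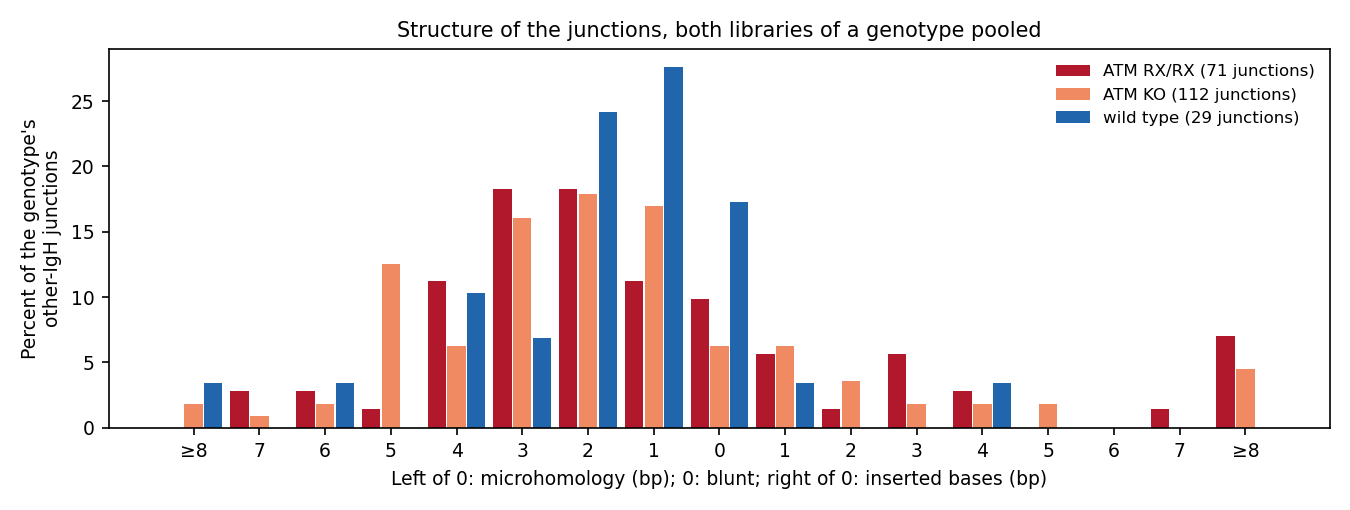
Percent of the members of a genotype (vertical axis) by the length of the overlap of bait and prey (microhomology, left of 0), blunt joints (0) and inserted bases (right of 0), for 71 ATM RX/RX, 112 ATM KO and 29 wild-type junctions, libraries pooled. The wild-type bars are highest at 1 bp of microhomology and the ATM RX/RX bars at 2 and 3 bp, and insertions of 8 bp or more are present in both mutants and not in wild type.

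Insertions were found in 11 of 43 and 6 of 28 members in ATM RX/RX and 3 of 27 and 19 of 85 in ATM KO, against 0 of 12 and 2 of 17 in wild type. The share was 23.5% ± 2.94 in ATM RX/RX, 16.7% ± 7.95 in ATM KO and 5.88% ± 8.32 in wild type (SD, n = 2 each). ATM RX/RX lay above wild type without overlap, and ATM KO overlapped it (exact permutation p = 0.3333 and 0.6667). Insertions of 2 bp or more numbered 8 and 5 in ATM RX/RX and 2 and 13 in ATM KO, against 0 and 1 in wild type. With structure classes of Sμ, Sγ1, Sε and the members tested together, each relative to the junctions of its region, this class gave log2 2.30 (SE 1.12) in ATM RX/RX and log2 1.85 (SE 1.14) in ATM KO. Neither passed, with edgeR adjusted p of 0.0966 and 0.217. Of the 8 member classes, edgeR called 0 in ATM RX/RX, 0 in ATM KO and 0 between the mutants, beside 28.1%, 21.9% and 3.12% of all 32 classes. Without adjustment, 1 had a p under 0.05 in ATM RX/RX and 0 had one in the other comparisons. DESeq2 called 0 in each.

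By place and orientation the structures were as follows. Insertions were found in 24 of 91 members outside the flanks and 5 of 45 in them, and in 14 of 83 plus-orientation and 27 of 129 minus-orientation members. Along the D segments 22 of 25 members had microhomology and 0 were blunt. Against the switch lists of the same library, members were blunt less often by 4.80 ± 3.58 percentage points, lower in 5 of 6 libraries (exact sign-flip permutation test over the libraries, p = 0.0625, and 0.312 after adjustment over 5 measures). Plus orientation, microhomology, insertions and mean microhomology length differed from the lists by less than their spread over libraries, with adjusted p between 0.417 and 0.688.

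No class of members passed the test between ATM RX/RX and ATM KO. Between them edgeR called 0 of 6 window classes (0% of all 14) and 0 of 7 bins (0% of all 16), with 1 class and 0 bins under a p of 0.05 before adjustment. DESeq2 called 0 of each. For deletional joins between Sμ and Sγ1 the difference was log2 -0.25 (SE 0.50, edgeR adjusted p = 0.810), which leaves room for a change of either sign.

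A few reads recurred. ATM RX/RX replicates 1 and 2 each held a junction in minus orientation at 114644694, past Ighm, whose preys end at the same base. The inserted bases, in capitals, differ by 2 at their start.
ATM RX/RX replicate 1, insertion of 17 bp: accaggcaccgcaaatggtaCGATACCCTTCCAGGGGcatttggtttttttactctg
ATM RX/RX replicate 2, insertion of 15 bp: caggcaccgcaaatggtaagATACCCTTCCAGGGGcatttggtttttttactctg
The same 2 libraries also shared a junction at 114660926 with microhomology of 3 bp, joined to other bait positions and with preys of 46 and 122 bases. Replicate 1 of ATM RX/RX listed a junction at 114725988 with an insertion of 4 bp in 2 reads, and pairs of reads with the same prey end and a start within 5 bp were found in ATM KO replicate 2 and ATM RX/RX replicate 2. Whether these are separate events was not tested. Counting once the reads with the same prey end and a start within 5 bp, chosen after the data were seen, removed 3 members. It left the deletional Sμ to Sγ1 class called in both mutants. The pairs at 114660926 and 114725988 have different prey ends and were not removed by this.

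In the mm9 annotation, 26 of the 208 placed members lay inside an mm9 gene and 12 of these in an exon. Gm11029 held 11, AI324046 4, Ighg2c 2 and Ighj3 2. Ighg, Ighj2, Ighd4-1, Ighd2-4, Ighd1-1, Gm17421 and Adam6b held 1 each. The 2 members in Ighj3 and the 1 in Ighg were wild type, and the 4 in AI324046 were from ATM RX/RX replicate 1 and ATM KO replicate 2.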

How the data were processed

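HTGTS junctions of 6 libraries were analysed, 2 per genotype. Per the labels' protocols, genomic DNA was amplified from a biotinylated Sμ primer, followed by nested PCR and AflII digestion, and sequenced on a MiSeq. Bowtie2 and mm9 are named in the submitters' processing notes. The deposited counts are the authors' whole numbers of junctions per region and bin. The deposited lists, of other units, give each junction's coordinate, orientation and read positions as the authors recorded them. For each region, listed plus empty lines equalled the authors' count. In the members' lists 4 lines were empty, and these were not analysed here, nor was a second, larger set of counts of ATM KO replicate 2.

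The gap between bait and prey on the read gave microhomology, blunt joints and insertions. Overlaps were compared with the bait's most frequent base at each position over all listed reads. Preys were matched to mm9 chromosome 12 with bwa 0.7.19 and kept within 5000 bp of the listed position. Of the 208 matches, 11 had several equally good places on the chromosome. Rows with at least 10 junctions over the 6 libraries were fitted with edgeR 4.0.16 (quasi-likelihood, 1 common dispersion, R 4.3.3), without covariates. Rows past an adjusted p of 0.05 were called. Each SE of an edgeR log2 change was worked back from the test, as the size of the change over the square root of its F value. It was not estimated separately. Shares were compared by exact two-sided permutation over libraries, and intervals are Clopper-Pearson at 95%. Intervals and limits for 0 cover counting error only. The fits were tested on simulated data. Alternatives included DESeq2 1.42.0, TMM factors, other totals and bins, a replicate block and leaving out each library. The members and lists were chosen with earlier results of these data known, and larger mutant shares downstream of Ighm were among them. The mm9 stretches and the comparison with the switch lists were added after the data were seen. Named are all windows and orientations, all bins with at least 10 junctions that were called, all mm9 genes holding a member, the longest microhomology and insertion of each genotype, and repeated junctions.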

Additional observations from a re-analysis of the deposited data

How the results depend on the processing

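Depth limits these results: wild type has 29 members in all, and 2 libraries per genotype. Differences in shares are in percentage points, the first-named genotype minus the second. Of 321 values of summary results under the alternatives, 270 kept their direction or, for counts of calls, stayed close to the main count, 16 turned direction, and 33 counts were clearly lower and 2 higher. The permutation tests cannot pass at this size, so for shares only the direction is compared. Against wild type, the members' share of IgH junctions, the Sμ to Sγ1 window share, the insertion share, mean microhomology length, the AGCT share and both flank measures kept their direction in both mutants under every alternative run. The plus-orientation share, higher in both mutants over all members, turned to -63.3 in ATM RX/RX B cells and -55.4 in ATM KO within the Sμ to Sγ1 window, where wild type has 4 members. The microhomology share, lower than wild type at 1 bp or more, turned to 4.94 in ATM RX/RX B cells and 11.9 in ATM KO at 2 bp or more, and to 2.32 and 8.25 at 4 bp or more. With overlaps counted up to the first mismatch with the bait it turned to 3.83 in ATM KO. Leaving out 1 library gave a range of -6.71 to 6.03 for ATM KO. For ATM RX/RX against ATM KO, leaving out members within 1000 bp of the switch lists turned the Sμ to Sγ1 window share to -4.72 and the plus-orientation share to 2.78. Leaving out 1 library gave -6.58 to 12.1 for that window share, -13.6 to 6.21 for plus orientation and -0.363 to 0.0837 bp for mean microhomology length. The cause was not tested for any of these.

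Class calls were 3 in each mutant. In ATM RX/RX they became 1 with replicate number as a block and 5 with IgH junctions as the total, and ranged over 0 to 4 with 1 library left out, as in ATM KO. Structure calls over all regions, 9 in ATM RX/RX B cells and 7 in ATM KO, became 0 and 0 with DESeq2 and 5 and 3 with 4 classes per region, where fewer classes are tested. In ATM KO they became 1 with the replicate block and 4 with repeated junctions counted once. Leaving out 1 library gave 2 to 10 in ATM RX/RX B cells and 0 to 7 in ATM KO. The 1 structure call between the mutants became 0 with DESeq2 and with the block, and 0 to 1 with 1 library left out. Bin calls, 4 in ATM RX/RX B cells and 8 in ATM KO, became 7 in ATM RX/RX with 2000 bp bins, and in ATM KO 5 with DESeq2, 3 without a filter and 3 with 10000 bp bins. With 1 library left out they were 2 to 4 and 1 to 8. Among single classes, the log2 change in ATM RX/RX with 1 library left out ranged over -0.32 to 1.40 for plus-orientation members between Sμ and Sγ1, and over -1.44 to 4.52 for microhomology of 5 bp or more. Same-numbered libraries did not deviate in the same direction over the 14 classes, so the numbers were not taken as pairs. Correlations were -0.0026 between ATM RX/RX and ATM KO and 0.022 between ATM RX/RX and wild type. Between ATM KO and wild type the correlation was -0.735, so same-numbered libraries there deviated in opposite directions. The cause of this was not tested.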
